A study of Mus musculus with 4 samples.

Results

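Opposite-strand genes are named after a neighbouring gene with the suffix "os", and most are long non-coding RNAs (lncRNAs) read from the strand opposite to that sense partner. A match of gene names ending in "os", or "os" and digits, found 46 of the 10925 gene names that the deposited region tables list. For 35 of them the name without the suffix is a RefSeq gene, and these are the opposite-strand genes described here. The other 11 are protein-coding genes that share the letters without being opposite-strand genes (Fos, Micos10, Micos13, Mocos, Nos3, Nrros, Pros1, Selenos, Sos1, Sos2 and Uros). Of the 35 genes, 32 are lncRNA genes in RefSeq, 2 are protein-coding (Cebpzos among them), and Frmd8os had no match there.

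Antisense transcripts can start close to the promoter of their partner and run away from it, or start inside or behind the partner gene and run back across it. Some regulate the partner in cis, through transcription across it or through chromatin factors, and many have no known role. H3K27 acetylation (H3K27ac) marks active promoters and enhancers, so a region of the mark over such a start shows acetylated chromatin there but does not tell which strand is transcribed.

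The mark was mapped by CUT&Tag, in which an antibody tethers a transposase that tags nearby DNA, in liver of wild-type C57/BL6J mice. There were 2 libraries from sham-operated mice and 2 libraries from mice 12 h after removal of 70% of the liver (partial hepatectomy, PHx). The sources used here do not give sex or age, no time is given for the sham libraries beside a design text that speaks of 0 h, and the source of each replicate is not stated, so the replicates may be technical. Each group has 1 merged list of regions, 11602 in sham with a median width of 8152.5 bp and 10170 after PHx with a median of 14550.5 bp, without signal or read counts. No value below therefore has a replicate error or a p-value, the depth is unknown, and intervals cover counting error alone. Of the hepatocyte markers with a listed start, 6 of 7 were marked in both groups and Cps1 in PHx alone. Of the 6 endothelial markers, 5 were marked in PHx alone and Stab2 in neither, while 17.8% of all listed genes were in PHx alone. Outside that list, the endothelial gene Nos3 was in sham alone. Of 3 Kupffer cell and macrophage markers with a listed start, 2 were in both groups and 1 in PHx alone. The stellate cell marker Ecm1 and the cholangiocyte marker Sox9 were in both, and the stellate cell marker Colec11 in PHx alone. The part of cell composition in the results below was not tested.

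In the text a start is the most upstream transcription start site listed for a gene, and a gene is marked in a group when a region overlaps its start ± 1 kb. Coordinates of starts and regions are those of the deposited tables (GRCm39).

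Sequences are shown for 6 members, chosen by the arrangement of their starts or by their promoter state. All are taken from RefSeq's promoter table on GRCm38.p6, a different build from that of the regions, and are written 5′ to 3′ on the strand of the opposite-strand gene. Taco1os and Phf2os1 start back to back with their partners, and what is printed is the stretch between the starts as RefSeq has them. These lie 50 bp apart at Taco1os, as in the deposited tables, but 66 bp apart at Phf2os1, where the deposited starts are 239 bp apart. For Cebpzos, marked in sham alone, Bcas3os2, marked in PHx alone, and Oip5os1 and Ctcflos, marked in both groups, the 250 bases before the start are given. Capitals mark matches to the motifs named after the sequences.

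Taco1os (chr11:106066042-106066090, minus strand): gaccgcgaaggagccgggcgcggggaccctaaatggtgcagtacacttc

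Phf2os1 (chr13:48870886-48870950, plus strand): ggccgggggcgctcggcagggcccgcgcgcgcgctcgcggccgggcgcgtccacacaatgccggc

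Cebpzos (chr17:78916249-78916498, plus strand): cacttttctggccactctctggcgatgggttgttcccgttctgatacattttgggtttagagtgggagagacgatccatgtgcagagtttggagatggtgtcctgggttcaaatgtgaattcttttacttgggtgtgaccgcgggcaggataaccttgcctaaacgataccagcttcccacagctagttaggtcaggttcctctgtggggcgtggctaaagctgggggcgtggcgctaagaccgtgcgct

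Bcas3os2 (chr11:85775681-85775930, minus strand): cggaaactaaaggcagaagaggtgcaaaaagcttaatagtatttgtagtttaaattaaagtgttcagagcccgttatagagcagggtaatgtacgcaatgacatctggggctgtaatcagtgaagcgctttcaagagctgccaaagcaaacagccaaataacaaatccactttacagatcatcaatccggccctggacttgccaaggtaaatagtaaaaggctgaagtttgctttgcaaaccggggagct

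Oip5os1 (chr2:119594046-119594295, plus strand): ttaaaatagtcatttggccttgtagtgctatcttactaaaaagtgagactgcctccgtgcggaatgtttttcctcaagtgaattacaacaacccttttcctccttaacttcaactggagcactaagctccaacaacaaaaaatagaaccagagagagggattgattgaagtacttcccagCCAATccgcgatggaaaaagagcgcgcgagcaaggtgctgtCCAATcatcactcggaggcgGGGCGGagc

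Ctcflos (chr2:173124499-173124748, plus strand): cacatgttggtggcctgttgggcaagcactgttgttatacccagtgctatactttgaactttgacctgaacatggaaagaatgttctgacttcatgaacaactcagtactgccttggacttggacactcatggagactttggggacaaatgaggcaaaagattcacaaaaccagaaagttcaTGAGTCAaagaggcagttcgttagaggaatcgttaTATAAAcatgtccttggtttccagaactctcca

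The stretch between RefSeq's starts of Phf2 and Phf2os1 is 86.2% G and C with 14 CpG dinucleotides in 65 bases, and that between Taco1 and Taco1os is 65.3% G and C with 5 CpG in 49 bases. Ctcflos and Bcas3os2 are poor in CpG, with 2 and 6 in 250 bases. Promoter windows (250 bases before the start and 50 after it) were found for 27 of the 35 genes. Their median ratio of observed to expected CpG was 0.306 (range 0 to 1.19), against 0.807 for the 23 sense partners with a window, 0.389 for all 27025 genes of the table and 0.247 for its lncRNA genes. A ratio over 0.6 was found in 7 of 27 opposite-strand genes (25.9%), in 16 of 23 partners (69.6%) and in 14.7% of the lncRNA genes. The partners' windows thus had the higher median, on the side of protein-coding genes (0.577), and those of the opposite-strand genes lay between the lncRNA genes and all genes. In the genes without a region in either group the median ratio was 0.283 (6 genes with a window), and in those with one it was 0.306 (21 genes). Here the region was sought at the listed start and the ratio taken at RefSeq's most upstream start, which can differ. At Junos, for example, RefSeq's start lies 95 bp from Jun and the listed start 91834 bp. These 2 medians therefore do not always compare window and region at the same start.

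Both strands of the windows were searched for 6 motifs. TATAAA, the TATA box, was found in 5 of 27 windows (18.5%, against 14.2% of all windows), among them Ctcflos and Atcayos. CCAAT was found in 8 (29.6% against 38.0%), with 2 copies before Oip5os1, and the GC box GGGCGG in 6 (22.2% against 35.9%). TGANTCA, the site of AP-1 factors, was found in 4 (14.8% against 7.92%), the windows of Ctcflos, Dnmt3aos, Parvaos and Sox5os3. TGACGTCA, the cAMP response element, was found in 1 window (3.70% against 1.85%) and CAAAGTCCA, a motif of HNF4 factors, in 0 (against 0.474%). None of these letters overlaps another motif in the printed sequences, and a match describes the letters alone.

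The label held where it could be checked. The sense partner was listed for 22 of the 35 genes (20 distinct partners, since Bcas3 and Sox5 have a pair of opposite-strand genes each), and all 22 pairs lie on opposite strands. For a further 6 genes without a listed partner, RefSeq's windows on GRCm38.p6 also put gene and partner on opposite strands. In 14 of the 22 pairs the opposite-strand gene starts inside the listed transcript of its partner, in 3 it starts beyond the partner's end and runs back over it (Atcayos, Frmd8os and Hectd2os), and in 5 it starts upstream of the partner and runs away from it (among them Ctcflos, Junos, Phf2os1 and Taco1os). The distance between the starts ranged from 50 bp at Taco1os to 422895 bp at Bcas3os2, with a median of 37491 bp. Besides Taco1os, Phf2os1 (239 bp) and Stk35os1 (942 bp) had the closest starts, and Bcas3os1 (366959 bp) and Rptoros (231460 bp) the most distant after Bcas3os2. Where windows of both genes allowed a comparison, 6 of 14 pairs had the same spacing in RefSeq's windows, Taco1os and Rptoros among them. The spacing of Bcas3os1 and Bcas3os2, 55936 bp, was the same as well. At Dnmt3aos the nearest start of Dnmt3a in RefSeq's windows lies 29500 bp away, against 60685 bp in the deposited tables, so distances and arrangements hold for the listed starts alone.

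Fewer opposite-strand starts had a region after PHx than in sham, by a margin of 3 genes, whereas over all listed genes more starts had one after PHx. Of the 35 genes, 23 (65.7%) were marked in sham and 20 (57.1%) after PHx, against 67.3% and 76.9% of all listed genes. A gene entered the set only through a region named for it, which 30 of the 35 had in sham and 23 after PHx. Cebpzos, Gata5os, Grin1os and Gssos2, in sham alone, entered through sham only, and Banf2os and Bcas3os2, in PHx alone, through PHx only. The counts by group thus depend in part on this entry rule, which also holds for all listed genes. The matching entry counts for all listed genes are not given here. How much of the contrast with all genes comes from the entry rule was therefore not tested. Both groups had a region at 15 of the starts (42.9%, 95% interval 26.3 to 60.6%), against 59.1% of the 10925 listed genes and 50.4% of the 2683 other lncRNA genes. PHx alone had one at 5 (14.3%, 4.81 to 30.3%), against 17.8% and 21.9%. Sham alone had one at 8 (22.9%, 10.4 to 40.1%), against 8.19% and 5.26%. Neither had one at 7 (20.0%, 8.44 to 36.9%), against 14.9% and 22.4%. The 20 listed partners gave 11 in both, 2 in PHx alone, 5 in sham alone and 2 in neither. They are not an independent set, since they were chosen through the opposite-strand genes. Stk35 and Taco1, both in sham alone, lay in the sham regions already counted for Stk35os1 and Taco1os. With regions under the lower quartile of width left out, 6 opposite-strand genes were in PHx alone and 6 in sham alone. All listed genes then gave 2183 in PHx alone and 1128 in sham alone. Shortening every PHx region by the ratio of the lists' median widths turned the order over all listed genes. These gave 1284 in PHx alone and 2487 in sham alone, and the opposite-strand genes 4 and 11. Shortening can only remove PHx marks, so it could not have turned the order of the opposite-strand genes. By the authors' own assignment of promoter regions to genes the order over all listed genes turned as well (1824 and 1887), and the opposite-strand genes gave 4 and 10.

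**Figure D1:**
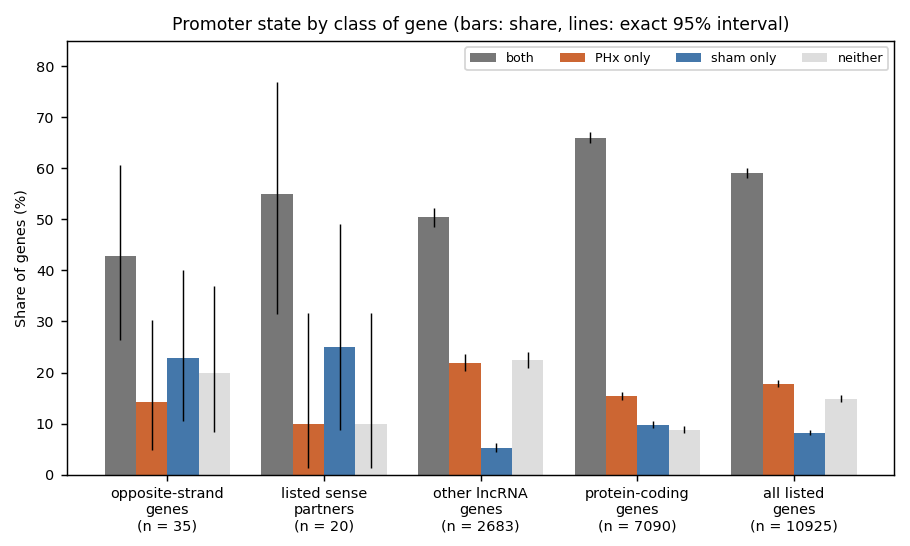
Share of genes (%) by promoter state in 5 classes of gene: marked in both groups, in PHx alone, in sham alone or in neither. Bars give the share and lines its exact 95% interval, which is wide for the 35 opposite-strand genes (sham alone 22.9%, from 10.4 to 40.1%) and narrow for all 10925 listed genes (8.19%).

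Among the genes marked in sham alone, the starts nearest to a partner shared their sham region with it, and neither start had one after PHx. Taco1os starts 50 bp from Taco1, which encodes a translational activator of a mitochondrial respiratory chain subunit. Its start (chromosome 11, 105956835) and that of Taco1 shared a sham region of 4265 bp. After PHx the nearest region, 19384 bp wide, ended 2986 bp from the Taco1os start. The authors assigned this PHx region to Taco1os as a promoter region and gave the shared sham region to Taco1, so by their assignment Taco1os was in PHx alone, the reverse. Stk35os1 (chromosome 2, 129643379) and Stk35, a kinase gene, shared a sham region of 5556 bp, and the nearest PHx region lay 11474 bp away. Each of these pairs was thus in sham alone through a single narrow region.

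The other 6 genes in sham alone had regions of their own. Cebpzos (chromosome 17, 79223928), named for the CCAAT/enhancer-binding protein gene Cebpz, had 5662 bp in sham and no PHx region within 61006 bp. Gata5os, in the gene of the transcription factor GATA5, had 7190 bp in sham, with the nearest base at -290 bp from its start, and no PHx region within 49287 bp. It was in neither group when the region had to cover the start itself. Grin1os, named for a subunit of the NMDA glutamate receptor, had 13531 bp, with the nearest PHx region 11754 bp away. Gssos2, inside the glutathione synthetase gene Gss, had 7657 bp and its nearest PHx region, that of Gss, was 6812 bp away. The Gss start was marked in both groups (13610 and 17809 bp). The other 2 were near misses. The PHx region closest to Chn1os3 (9833 bp in sham) began 3202 bp downstream of its start. That closest to Fhad1os2 (5536 bp in sham) lay 3176 bp away from its start. Fhad1os2 has another listed start, which was marked in both groups (8872 bp in sham and 47337 bp after PHx). So of the 8, 3 had a PHx region within 4 kb and 2, Cebpzos and Gata5os, had none within 40 kb.

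Peaks carry a number per library, taken here to run along the genome. Numbers missing between neighbouring regions were read as peaks of that library that entered no listed region. Such a peak can lie anywhere between the listed regions on either side of a start, also far from it. Missing numbers of a PHx library were present around 6 of the 8 starts in sham alone, the exceptions being Fhad1os2 and Taco1os. At these 6 the merged PHx list alone does not show whether 1 of the PHx libraries had a peak. Missing numbers were as common elsewhere. Over all listed genes, 144 of the 895 in sham alone stayed so where absence counted only without missing numbers.

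Of the 5 genes in PHx alone, 2 had no sham region anywhere under their PHx region. Plxna4os1 (chromosome 6, 32488076), inside the gene of the semaphorin receptor plexin A4, had 27588 bp after PHx, and the nearest sham region was 110762 bp away. Bcas3os2 (chromosome 11, 85666506) had 11243 bp, with the nearest sham region 33613 bp away. Its partner Bcas3, whose protein takes part in autophagy and cell migration, starts 422895 bp away and was in sham alone (6823 bp), so that gene and partner were marked in opposite groups. The remaining 3 starts each had a sham region within 3 kb that did not reach the window. Sox5os4, inside the transcription factor gene Sox5, had 10579 bp after PHx and a sham region of 5324 bp at 2560 bp, while Sox5 was marked in both groups (6214 and 18389 bp). Srrm4os, named for a neural splicing factor gene, lay in a PHx region of 40296 bp named for Gm42009, with a sham region of 6384 bp at 2477 bp. The authors assigned this sham region to Srrm4os as a promoter region, so by their assignment Srrm4os was in sham alone, the reverse. Banf2os lay in a PHx region of 63597 bp, of which sham regions covered 69.6%, the nearest at 2872 bp. Missing peak numbers of a sham library were present around 4 of the 5 starts, the exception being Sox5os4. Over all listed genes, 293 of the 1947 in PHx alone stayed so where absence counted only without missing numbers.

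**Figure D2:**
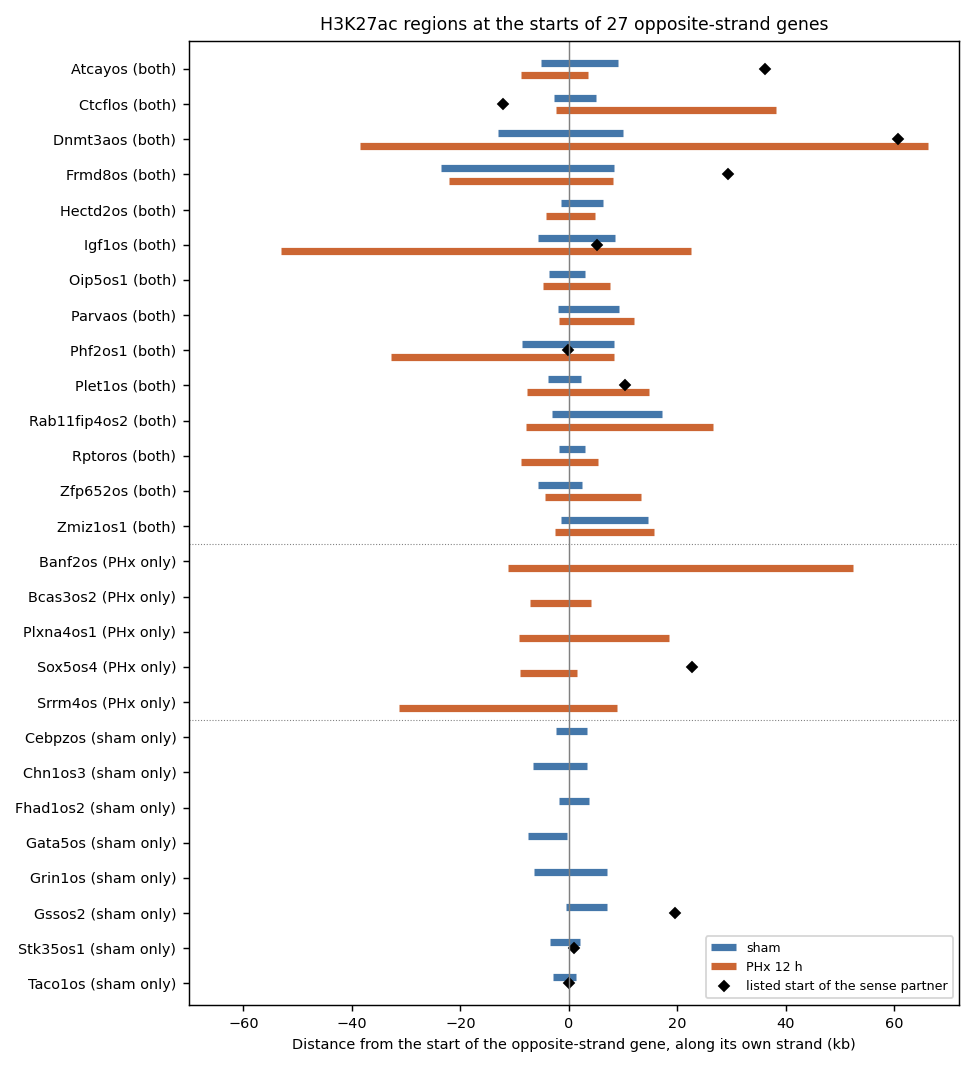
Regions at the starts of 27 of the 28 opposite-strand genes marked in at least 1 group, drawn as distance in kb from the start along the gene's own strand, with 1 line per group and a diamond at the listed start of the sense partner where it lies within 70 kb. Most PHx lines are longer than the sham lines of the same gene, reaching 104740 bp at Dnmt3aos, and those of Atcayos and Frmd8os are not.

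The 15 genes marked in both groups had a median width ratio, PHx over sham, of 1.86 (quartiles 1.16 and 3.41, range 0.859 to 5.38). All 6459 listed genes marked in both groups had 1.74 (quartiles 1.24 and 2.81), the 1352 other lncRNA genes 1.79 and the 11 partners 1.67. The region was wider after PHx at 12 of the 15 (against 91.5% of all listed genes), and over 3 times as wide at 5 of them, against 22.2% of all listed genes. Whether these values differ from those of other genes was not tested.

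The ratios over 3 were at Igf1os, Ctcflos, Dnmt3aos, Plet1os and Rptoros. At Igf1os (chromosome 10, 87699255), which starts 5128 bp inside Igf1, the gene of insulin-like growth factor 1, the region covers both starts in both groups and was 14075 bp wide in sham, against 75705 bp after PHx. A further sham region of 30687 bp that the authors assigned to Igf1os overlaps the same PHx region, and the sham regions together cover 56.9% of it. Ctcflos (chromosome 2, 172966542) starts 12195 bp upstream of Ctcfl, a paralogue of the insulator protein gene Ctcf that is known from the testis. Its region went from 7782 to 40614 bp. The PHx region also holds the start of Pck1, the gene of the gluconeogenic enzyme phosphoenolpyruvate carboxykinase, which in sham lay in a separate region of 29765 bp, and the sham regions cover 91.5% of it. Most of the PHx region behind the ratio of 5.22 at Ctcflos was thus already in sham regions. Ctcfl itself had 11227 and 13146 bp.

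Dnmt3aos (chromosome 12, 3912244) starts 60685 bp inside Dnmt3a, the gene of a de novo DNA methyltransferase. It had a sham region of its own of 23066 bp, and Dnmt3a had one of 11504 bp. After PHx a single region of 104740 bp ran over both starts, joined 5 sham regions and was covered by them to 63.0%. Plet1os (chromosome 9, 50416105) starts 10280 bp inside Plet1, the gene of a surface protein of placenta and epithelia, and its transcript runs back past the Plet1 start. In sham a region of 5985 bp lay at Plet1os and none at Plet1, the nearest being 8128 bp away. After PHx a region of 22535 bp covered both starts, and sham covered 26.6% of it, so Plet1 was marked in PHx alone. Rptoros (chromosome 11, 119725191) lies deep in Rptor, which encodes the Raptor scaffold of the growth-controlling kinase complex mTORC1. The Rptoros region went from 4687 to 14312 bp. The Rptor start, 231460 bp away, had no sham region within 36470 bp and a PHx region of 22734 bp. At Plet1os and Rptoros, unlike at Ctcflos, most of the PHx region was not in any sham region.

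**Figure D3:**
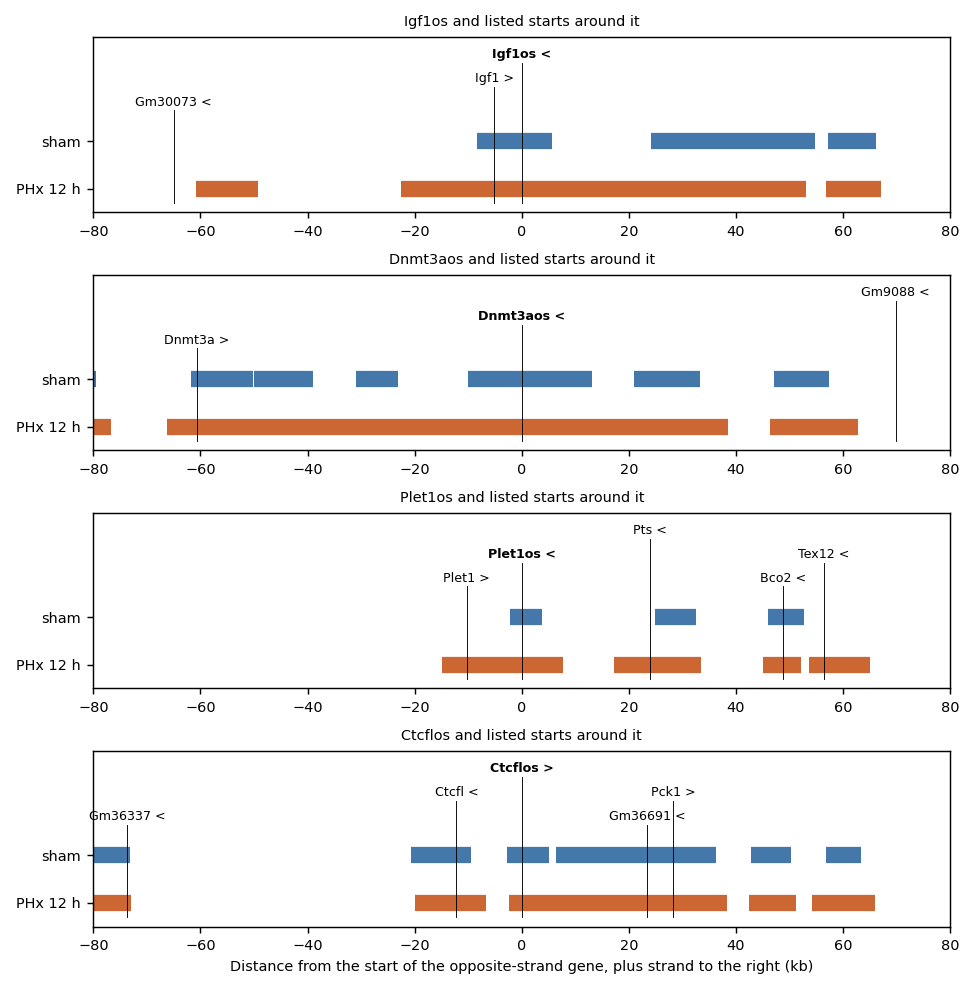
Regions around Igf1os, Dnmt3aos, Plet1os and Ctcflos as distance in kb from the start of the opposite-strand gene, with sham regions in the upper row and PHx 12 h regions in the lower row of each panel; thin lines mark listed starts, with > for the plus and < for the minus strand. A single PHx region spans the Dnmt3a and Dnmt3aos starts, which have separate sham regions, and the Plet1 start has a region after PHx alone.

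Atcayos, Frmd8os, Zmiz1os1 and Hectd2os were among the 5 genes with the smallest ratios. Atcayos, behind the neuronal gene Atcay, had 14308 bp in sham and 12289 bp afterwards (ratio 0.859). Atcay itself had 10951 bp in sham alone. Frmd8os had 31831 and 30234 bp (0.95), the widest sham region at any of the 23 starts, and Frmd8 18981 and 28590 bp. Zmiz1os1 had 15971 and 18274 bp (1.14), in a region named for the lncRNA gene Gm32645 in both groups, and Hectd2os had 7691 and 9101 bp (1.18). At each of these 4 genes the region had the same name in both groups.

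A further 5 genes in both groups lay between these. Parvaos, inside the gene of the adhesion protein alpha-parvin, had 11251 and 13889 bp, and Parva 5008 and 6654 bp. Rab11fip4os2 had 20141 and 34498 bp, and the Rab11fip4 start, 84065 bp away, was in neither group. Oip5os1, known as the conserved lncRNA Cyrano, had 6612 and 12305 bp. Zfp652os had 8176 and 17605 bp. Phf2os1 (chromosome 13, 49024600) shared with Phf2, the gene of a histone demethylase, a region of 16947 bp in sham and 41192 bp after PHx, so this back-to-back pair was marked as a pair in both groups.

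**Figure D4:**
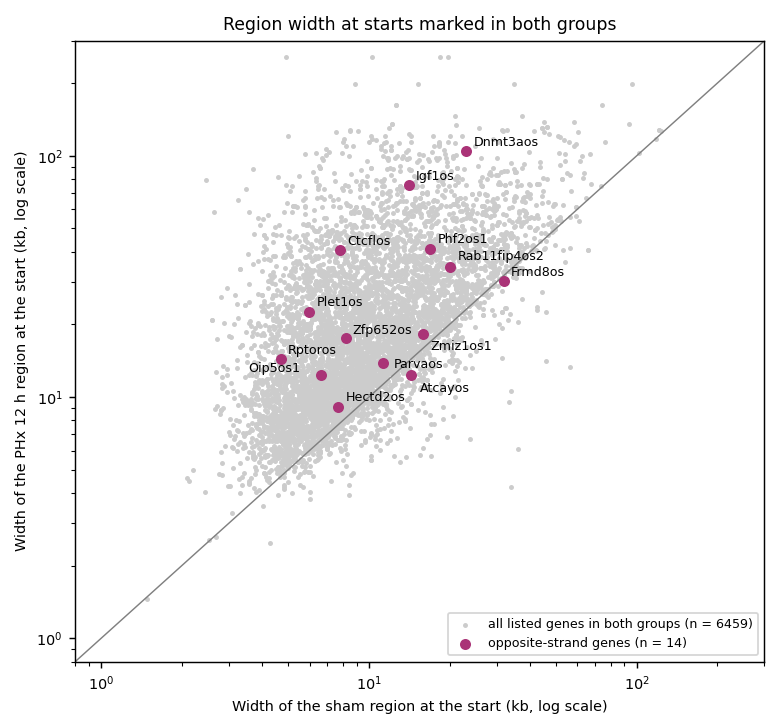
Width in kb (log scales) of the region at the start in sham and after PHx for 14 of the 15 opposite-strand genes marked in both groups, over the 6459 listed genes marked in both; the line marks equal widths. The opposite-strand genes lie within the cloud of all genes, from Atcayos (12289 against 14308 bp) below the line to Igf1os (75705 against 14075 bp) far above it.

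The 7 genes in neither group were listed through regions away from their starts. Junos is the member next to Jun, the gene of an AP-1 subunit induced early after hepatectomy. Its listed start lies 91834 bp from the Jun start, and the authors' regions over a Junos exon were 11956 bp wide in sham, against 15894 bp after PHx. On GRCm38.p6 RefSeq also has a Junos start 95 bp upstream of Jun. The Jun region (8720 and 14545 bp) reached 3631 bp upstream of the Jun start in sham and 7276 bp after PHx. Junos thus counts as unmarked through the start that the tables happen to list. Acss2os, inside the acetyl-CoA synthetase gene Acss2, had an intron region of 14748 bp after PHx and no sham region under it, while the Acss2 start had 7186 and 8540 bp. Peak1os had a region of 11055 bp after PHx with no sham region under it, 15566 bp from its start, and Peak1, a pseudokinase gene, was marked in both groups (9243 and 18265 bp). Sox5os3 had intron regions in both groups (10779 and 13591 bp) and a further one of 11065 bp in PHx alone. Bcas3os1 had 2 sham regions in an intron of Bcas3, of which the one of 7967 bp had no PHx region over it and the one of 9107 bp lay under a PHx region of 22159 bp. Kirrel3os had a sham region of 6471 bp without a PHx region, and Fhad1os1 a sham region of 15044 bp under a PHx region named for Gm35295.

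Of the 22 pairs of an opposite-strand gene and its partner, 8 were in the same state and 14 were not, and whether unrelated genes share a state as often was not tested. Most of the differing states rest on an absence with missing peak numbers. Where absence counted only without such numbers, 8 pairs had a state at both starts, and 7 of these were in the same state. That rule always keeps pairs marked in both groups, which were 6 of the 8. In sham both starts were marked in 11 pairs, the partner alone in 7 and the opposite-strand start alone in 4. After PHx the counts were 9, 5 and 5, and 3 pairs had no marked start. One region covered both starts in 4 pairs in sham (Igf1os, Phf2os1, Stk35os1 and Taco1os) and in 4 after PHx (Dnmt3aos, Igf1os, Phf2os1 and Plet1os). Pairs under one region share a state by construction. Of the 16 pairs without a common region in either group, 3 were in the same state (Ctcflos, Frmd8os and Parvaos, each marked in both groups with its partner). Among these 16 pairs none had both starts in sham alone or both in PHx alone.

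The name given to a region also differed between the lists. The annotation names 1 gene per region. In sham 35 regions were assigned to 30 of the opposite-strand genes, and after PHx 29 regions to 23 of them, 18 genes being named in both lists. At the starts marked in sham, 18 of 23 regions carried the name of the opposite-strand gene and 4 that of the partner. After PHx 12 of 20 did, and 6 carried the partner's name. Of the 35 sham regions, 21 overlapped a PHx region named for the same gene, against 71.5% of all sham regions. A further 8 overlapped only PHx regions named for other genes (14.5% of all), and 6 overlapped none (14% of all). The starts of Dnmt3aos, Plet1os, Rab11fip4os2 and Rptoros lay in a region of their own name in sham and in a region named for the partner after PHx. Of the 29 PHx regions, 20 overlapped a sham region named for the same gene (72.7% of all PHx regions) and 1 only sham regions named for other genes (4.86% of all). The other 8 (22.5% of all) overlapped no sham region, at Acss2os, Bcas3os2, Hectd2os, Peak1os, Phf2os1, Plxna4os1 (2 regions) and Sox5os3. Counting genes by name would therefore have put Dnmt3aos, Igf1os, Plet1os, Rab11fip4os2 and Rptoros, whose starts were marked in both groups, among the genes listed in sham alone. It would have put Phf2os1, also marked in both groups, among those listed in PHx alone.

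The 11 genes matched by their letters alone gave 8 in both groups, 1 in PHx alone (Uros, an enzyme of haem synthesis, 16692 bp), 1 in sham alone (Nos3, endothelial nitric oxide synthase, 7387 bp) and 1 in neither (Micos10). In the 8 the median width ratio was 2.64 (range 1.46 to 5.30), with the largest at Pros1, the gene of the anticoagulant protein S (3838 and 20358 bp). Fos, an AP-1 partner of Jun, had 12569 and 45453 bp. They have no part in the counts above.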

How the data were processed

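H3K27ac CUT&Tag libraries (2 sham and 2 PHx 12 h) were analysed from the 1 table per group that the authors deposited. The authors' columns hold, per the file headers, positions, widths and distances in bp for each region, its assigned gene and the peaks joined in it. Tools credited in the submitters' processing notes are DiffBind, ChIPseeker, SEACR and Bowtie2, with no version or role, and the build is GRCm39. Settings of the caller: not given in the sources used here.

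Starts, overlaps (at least 1 bp) and widths were computed with Python 3.11.15, pandas 2.3.3 and numpy 2.4.6, and Clopper-Pearson 95% intervals with scipy 1.17.1. State calls were tested on simulated data. RefSeq names, biotypes and promoter windows are of GRCm38.p6 and gave no position for a region. Windows were the most upstream of a gene. Of the columns with values per sample, 0 were left out.

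The genes named follow a rule: every gene marked in 1 group or differing in state from its partner, the 10 largest and 5 smallest width ratios, and the 3 closest and 3 most distant pairs. Of the partner lists drawn up, only Jun had a member; the members and lists were chosen with earlier results of these data known. Of the genes counted, 1 is not reported here by name. Every name matched by its letters alone is also given. Alternatives varied window, start, assignment, overlap, width, members and peak numbers.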

Additional observations from a re-analysis of the deposited data

How the results depend on the processing

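Over the 35 opposite-strand genes the counts, 15 in both groups, 5 in PHx alone, 8 in sham alone and 7 in neither (net -3), stayed within 1.5 times under windows of ± 500 bp and ± 2 kb, the start base alone, any listed start and 50% coverage of the window. By the authors' own assignment 11 were in neither, the net was -6, 5 pairs were in the same state in place of 8, and Taco1os and Srrm4os changed to the opposite group. With regions at or above the lower quartile of width, 11 were in neither and the net was 0. With PHx regions shortened by the ratio of the median widths the net was -7, 5 pairs were in the same state and the median width ratio was 1.12 in place of 1.86. Where absence counted only without missing peak numbers, 1 gene was in PHx alone, 2 in sham alone and 0 in neither, a net of -1, and the remaining genes not in both groups had no state. Under this rule only 8 pairs had a state at both starts, and 7 of these were in the same state. Among alternatives added after seeing the data, all 46 name matches gave 23 in both, and 3 of the 16 pairs without a common region were in the same state. No alternative turned the net count positive. Shortening PHx regions can only lower it, however, and the window, start base and coverage settings changed the state of Gata5os alone. These settings therefore say little on whether a net of -3 is stable. No paired analysis was possible because the tables hold 1 merged list per group and no values per library, and leaving out each replicate was not run for the same reason. Depth is unknown, so a missing region may be a peak under the caller's limit.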
